A study of Mus musculus with 9 samples.

Results

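Among the T-cell barcodes of 6 lymph node libraries, 6075 carried exactly 1 productive T-cell receptor beta chain (TRB) and no productive alpha chain (TRA). They are called beta-only barcodes here. They were chosen on the listed chains of each barcode, out of 18764 barcodes with any productive chain in these 6 libraries and 36630 in all 9 tables of the series. The barcodes they are set against, called paired, held 1 TRB chain with 1 or 2 TRA chains and numbered 10257. A further 1887 barcodes held a single TRA chain and no TRB chain (alpha-only). The choice used the presence of TRA chains, so shares of beta-only barcodes are given as descriptions. Tests were made on the TRB chain, of which the choice itself used only the number. Beta-only barcodes were, however, listed only with 2 or more counted molecules of that chain. Molecule counts are therefore also compared with this minimum in both classes.

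The cells were taken from 3 kinds of lymph node, the deep cervical (dCLN), the superficial cervical (sCLN) and the inguinal (iLN), in wild-type (WT) and in 5xFAD mice, all of them female and aged 10 to 11 months. 5xFAD is a transgenic mouse line used as a model of Alzheimer's disease, with transgenes expressed in neurons under the Thy1 promoter. Cell suspensions were tagged with hashtag antibodies and combined in equal cell numbers, and each node and genotype is represented by 1 library. The number of animals behind a library is not given, nor whether nodes shared animals. A difference between 2 libraries therefore has no replicate check, and the interval on a share covers only counting error.

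A T cell of the alpha-beta lineage carries a receptor of 1 beta and 1 alpha chain. The beta gene is rearranged first in the thymus, where it is tested with a surrogate alpha chain, and the alpha gene is rearranged later, often on both chromosomes. A mature alpha-beta T cell therefore needs a productive alpha chain, and a barcode that lists only a beta chain either lacks that chain in the cell or lacks it in the data. In the 5′ method used here, a chain is amplified from its constant region towards the start of the transcript, and its molecules are counted by unique molecular identifiers (UMIs). Gamma-delta T cells and B cells, which can be recognised by their own receptor chains, could not be looked for, since 0 contigs of the TRG, TRD or immunoglobulin loci were listed.

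The libraries held 3458 to 8426 contigs and 28460 to 75569 UMIs. Pairs of libraries shared 3 to 26 barcodes over 15 pairs, with 0 combinations of barcode and junction in common. No beta-only barcode had a neighbour 1 base away with the same TRB junction in its library (0 barcodes). Only 3 contigs of the 6 libraries were left out, for want of a productive junction.

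Some beta-only barcodes carried a TRB chain that was also found, with an alpha chain, in another barcode of the same library. A TRB chain here is the combination of TRBV gene, TRBJ gene and junction nucleotides. There were 198 such chains, of which 189 were in 1 paired barcode and 9 in 2 or more. The 6 chains found in the most paired barcodes, with ties broken by UMI count, are printed to show what these shared receptors look like. Junctions run 5′ to 3′ from the conserved cysteine codon to the conserved phenylalanine codon, and capitals mark bases added between the gene segments, as the deposited alignment places them.
iLN WT, TRBV16 with TRBJ2-7: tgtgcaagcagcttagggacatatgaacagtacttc
dCLN WT, TRBV4 with TRBJ1-5: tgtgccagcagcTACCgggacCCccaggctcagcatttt
dCLN WT, TRBV23 with TRBJ2-3: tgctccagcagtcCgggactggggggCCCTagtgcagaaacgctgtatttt
dCLN WT, TRBV20 with TRBJ2-1: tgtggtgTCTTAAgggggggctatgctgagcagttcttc
dCLN WT, TRBV5 with TRBJ2-7: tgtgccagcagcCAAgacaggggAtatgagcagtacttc
dCLN WT, TRBV1 with TRBJ1-4: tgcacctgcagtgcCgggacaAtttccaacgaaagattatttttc

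The TRBV16 junction held 0 added bases, and the other 5 held 2 to 6. Of these 6 chains, 4 were in 1 beta-only barcode and 2 paired barcodes, and the TRBV16 and TRBV23 chains were in 2 of each. The paired barcodes of each chain carried the same alpha junction, as did those of all 9 chains found in 2 or more paired barcodes. The TRBV4 chain had 8 UMIs in its beta-only barcode and 2 to 4 in its paired barcodes, whose alpha contigs (TRAV6D-7 with TRAJ48) had 2 to 12 UMIs. The TRBV20 chain had 6 UMIs without an alpha chain and 6 to 7 with one, beside 8 to 9 UMIs of TRAV14D-3/DV8 with TRAJ16. The TRBV5 chain had 5 UMIs without an alpha chain and 5 to 7 with one, beside 9 to 18 UMIs of TRAV13-4/DV7 with TRAJ39. In these last 2 clones the alpha contigs of the paired barcodes held more UMIs than their beta contigs. The TRBV16 clone leaned the other way but with overlapping ranges, 2 to 6 alpha UMIs (TRAV16 with TRAJ53) beside 4 to 12 beta UMIs. Its beta-only barcodes had 16 beta UMIs at most. The ranges also overlapped in the TRBV4 clone and in the other 2 clones. TRBV23 had 3 to 20 alpha and 3 to 5 beta UMIs, and TRBV1 had 3 to 24 alpha and 3 to 16 beta UMIs.

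Beta-only barcodes made up 28.0% to 52.0% of the barcodes with 1 TRB chain, depending on the library. In dCLN the share was 39.0% of 2011 barcodes in WT (exact Clopper-Pearson 95% interval 36.8 to 41.2) and 37.1% of 4357 in 5xFAD (35.6 to 38.5). In sCLN it was 40.9% of 1899 in WT (38.6 to 43.1) and 28.0% of 3230 in 5xFAD (26.4 to 29.6). In iLN it was 30.7% of 2435 in WT (28.8 to 32.6) and 52.0% of 2400 in 5xFAD (50.02 to 54.1). The inguinal 5xFAD library was the highest and the superficial cervical 5xFAD library the lowest, so the 2 genotypes overlapped.

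The genotype difference in this share had opposite signs in different nodes. 5xFAD minus WT was -1.92 percentage points in dCLN, -12.9 in sCLN and 21.4 in iLN. The mean over the 3 node types was 36.8% ± 5.42 for WT libraries against 39.0% ± 12.1 for 5xFAD libraries (SD, n = 3), a difference of 2.19 percentage points. It is given as a description, since the choice of barcodes used the same readout and an exact sign-flip test over 3 node types cannot go below p = 0.25. Without the iLN libraries the mean difference turned to -7.40, and without the sCLN libraries it was 9.72.

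The mirror class, barcodes with an alpha chain only, was smaller in all 6 libraries. Of alpha-only plus paired barcodes it made up, for WT, 13.6% in dCLN, 19.4% in sCLN and 13.4% in iLN. For 5xFAD these shares were 15.4%, 12.5% and 22.2% in the same node order. The inguinal 5xFAD and superficial cervical WT libraries, which had the highest beta-only shares, also had the highest alpha-only shares. Single-chain barcodes of both kinds thus varied between libraries, which is shown in the plot of shares per library.

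**Figure D1:**
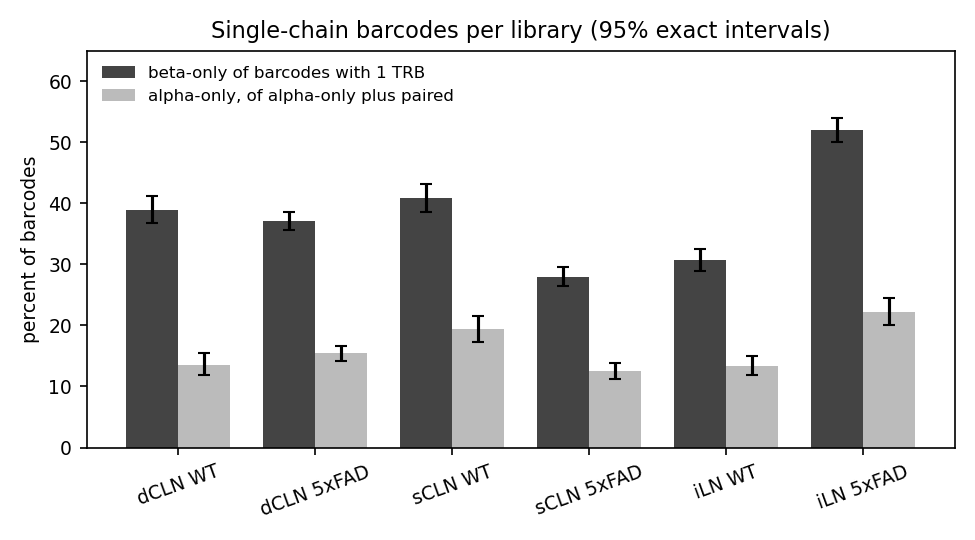
Percent of single-chain barcodes in each of the 6 libraries. Dark bars give beta-only barcodes among barcodes with 1 TRB chain, light bars alpha-only barcodes among alpha-only plus paired barcodes, with exact 95% intervals; iLN 5xFAD is highest in both (52.0% and 22.2%).

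The beta chain of beta-only barcodes had median UMI counts equal to or 1 below those of paired barcodes. The median TRB UMI count, beta-only against paired, was 7 against 8 in dCLN WT, 10 against 10 in dCLN 5xFAD, 9 against 9 in sCLN WT, 9 against 10 in sCLN 5xFAD, 8 against 9 in iLN WT and 9 against 9 in iLN 5xFAD. Between 32.9% and 50.5% of beta-only barcodes per library had 10 or more TRB UMIs, and the highest count was 64. The mean log2 UMI count was 3.07 ± 0.14 in beta-only and 3.07 ± 0.11 in paired barcodes (SD, n = 6 libraries), a mean difference of 0.00 ± 0.07 that was positive in 3 of 6 libraries (p = 0.906 by two-sided exact sign-flip permutation, Benjamini-Hochberg adjusted p = 0.906 over 15 measures). With 6 libraries the smallest p this test can give is 0.0312.

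One feature of the tables bears on that comparison. No beta-only barcode had a TRB chain of 1 UMI (0 in each library), whereas 0.985% to 2.52% of paired barcodes did, and this difference is given with no test. Alpha-only barcodes had 0 chains of 1 UMI as well, and every beta-only contig was numbered as the first of its barcode. Nor did any barcode hold 2 or more chains of 1 kind and 0 of the other (0 with TRB only, 0 with TRA only). Single-chain barcodes of these 6 libraries were thus listed from 2 UMIs upwards. With the minimum of 2 UMIs applied to both classes, the difference in mean log2 UMI count was -0.06 ± 0.06 and negative in 5 of 6 libraries (exact two-sided p = 0.0938).

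The share of barcodes without an alpha chain did not decline steadily as TRB UMIs increased. At 2 TRB UMIs it ran from 19.2% to 40.9% over the 6 libraries, with a median of 28.4%. The median was 37.8% at 3 UMIs, 39.8% at 4, 40.2% at 5 to 6, 38.02% at 7 to 9 and 36.5% at 10 and over. In iLN 5xFAD, where beta-only barcodes were most frequent, the share was 33.3% of 60 barcodes at 2 UMIs (exact 95% interval 21.7 to 46.7), 58.2% of 380 at 5 to 6 (53.02 to 63.2) and 51.4% of 1089 at 10 and over (48.4 to 54.4). In dCLN WT the highest value was at 3 UMIs, with 57.1% of 154 barcodes (48.9 to 65.1), against 36.1% of 714 at 10 and over (32.6 to 39.8). The low end at 2 UMIs rested on 529 barcodes over all libraries, and 7671 had 10 or more.

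**Figure D2:**
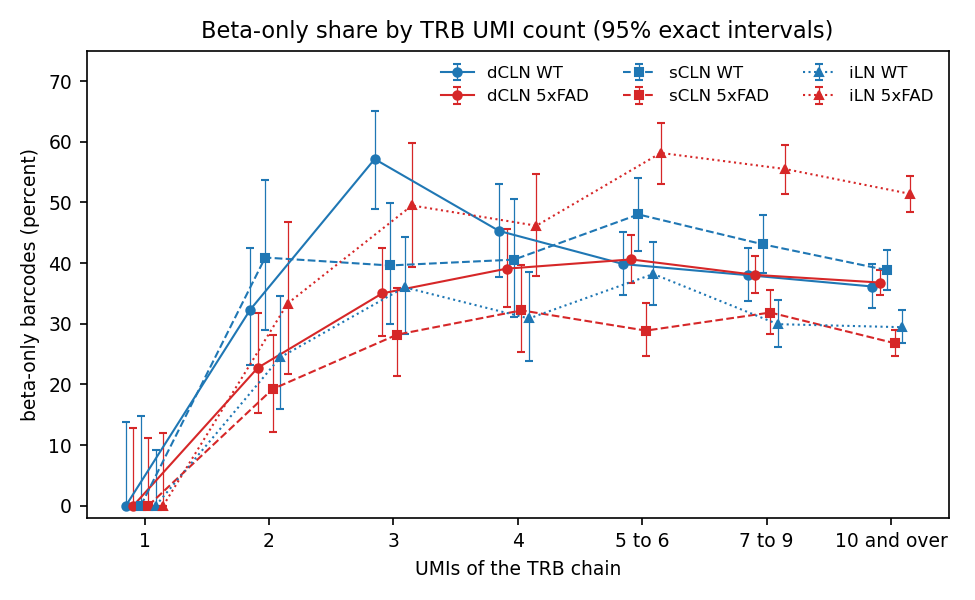
Percent of beta-only barcodes among barcodes with 1 TRB chain (y) by the UMI count of that chain (x), 1 line per library, with exact 95% intervals. The value at 1 UMI is 0 in each library, and from 3 UMIs upwards the medians over libraries lie between 36.5% and 40.2%, while dCLN WT falls from 57.1% at 3 UMIs and iLN 5xFAD peaks at 58.2% at 5 to 6.

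The alpha chain of paired barcodes shows how many UMIs that chain had where it was listed. Its median was 5 or 6 UMIs in each library, and 1.04% to 4.56% of paired barcodes had an alpha chain of 1 UMI, counting the chain with more UMIs where there were 2. The median alpha count moved little with the beta count: at 10 or more TRB UMIs it was 5 to 6 over the libraries, and at 2 TRB UMIs it was 4 to 6. Within a library the Spearman rho between both counts was 0.06 to 0.10 over 1123 to 2742 paired barcodes, which share library and depth. In alpha-only barcodes the median was 6 or 7 UMIs.

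Between beta-only and paired barcodes, the use of 4 TRBV genes and of 0 TRBJ genes differed past the threshold. Usage was counted as distinct TRB chains per library and class, and tested within libraries over 33 genes (edgeR quasi-likelihood test with the library as a block). 3 genes, TRBV2, TRBV19 and TRBV3, were lower in beta-only chains (9.09% of the genes tested), and 1, TRBV5, was higher (3.03%). All 4 had the same direction in 6 of 6 libraries. 6 genes had an unadjusted p under 0.05.

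TRBV2 had the largest difference of the 33 genes. It made up 1.11% of beta-only and 1.71% of paired chains in dCLN WT, 0.633% and 1.54% in dCLN 5xFAD, 0.665% and 1.29% in sCLN WT, 0.691% and 3.11% in sCLN 5xFAD, 1.796% and 3.32% in iLN WT, and 0.244% and 0.525% in iLN 5xFAD. These beta-only shares rest on 3 to 13 chains per library. The beta-only value was the lower one in each library, although the ranges of the classes over libraries overlapped. The log2 fold change was -1.21 (standard error 0.21, edgeR with Benjamini-Hochberg adjusted p = 0.00154), and it ran from -1.33 to -0.97 with 1 library left out, with 6 of 6 such fits past the threshold. With node type and genotype in place of the library block it was -1.35 (edgeR adjusted p = 0.200). Put the other way, 7.69% of 78 TRBV2 barcodes in sCLN 5xFAD and 33.3% of only 9 in iLN 5xFAD lacked an alpha chain. Of all barcodes with 1 TRB chain in those libraries, 28.0% and 52.0% did. The gene lies on chromosome 6 from 41047340 to 41047995 in GRCm38.

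TRBV19, which pairs with the invariant alpha chain in part of the MAIT cells (T cells that recognise microbial vitamin B metabolites), was also lower. Its shares in beta-only and paired chains were 2.08% and 2.74% in dCLN WT, 1.08% and 2.65% in dCLN 5xFAD, 1.46% and 1.57% in sCLN WT, 2.65% and 3.77% in sCLN 5xFAD, 2.76% and 2.96% in iLN WT, and 0.978% and 1.58% in iLN 5xFAD. The gap was widest in dCLN 5xFAD and narrow in sCLN WT and iLN WT. The log2 fold change was -0.57 (standard error 0.17, edgeR adjusted p = 0.0391). The call was lost without dCLN 5xFAD (-0.36, edgeR adjusted p = 0.345) and also without dCLN WT, sCLN 5xFAD or iLN 5xFAD, where adjusted p was 0.0634, 0.0695 and 0.0689. TRBV19 spans 41178375 to 41179048 on the same chromosome.

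TRBV3, the V gene next to TRBV2 (41048290 to 41048828), made up 3.06% of beta-only and 5.13% of paired chains in dCLN WT, 4.43% and 5.99% in dCLN 5xFAD, and 2.53% and 3.42% in sCLN WT. In sCLN 5xFAD its shares were almost level, at 7.37% and 7.50%, and in iLN they were 3.45% and 3.98% in WT and 2.44% and 3.68% in 5xFAD. The log2 fold change was -0.35 (standard error 0.10, edgeR adjusted p = 0.0391). The call was lost without dCLN 5xFAD (edgeR adjusted p = 0.332), dCLN WT (0.0799), sCLN WT (0.0766) or iLN 5xFAD (0.0689). With the minimum of 2 TRB UMIs in both classes, neither TRBV3 (edgeR adjusted p = 0.0575) nor TRBV19 (0.0613) passed.

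TRBV5, from 41062332 to 41062803, was the only gene called higher in beta-only chains. Its shares in beta-only and paired chains were 11.1% and 8.73% in dCLN WT, 10.3% and 8.63% in dCLN 5xFAD, 9.18% and 8.87% in sCLN WT, 10.3% and 8.55% in sCLN 5xFAD, 9.25% and 7.79% in iLN WT, and 10.3% and 6.83% in iLN 5xFAD. The lowest beta-only library, at 9.18%, was above the highest paired one, at 8.87%. The log2 fold change was 0.29 (standard error 0.06, edgeR adjusted p = 0.00484), and it was 0.24 without iLN 5xFAD (edgeR adjusted p = 0.0689).

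**Figure D3:**
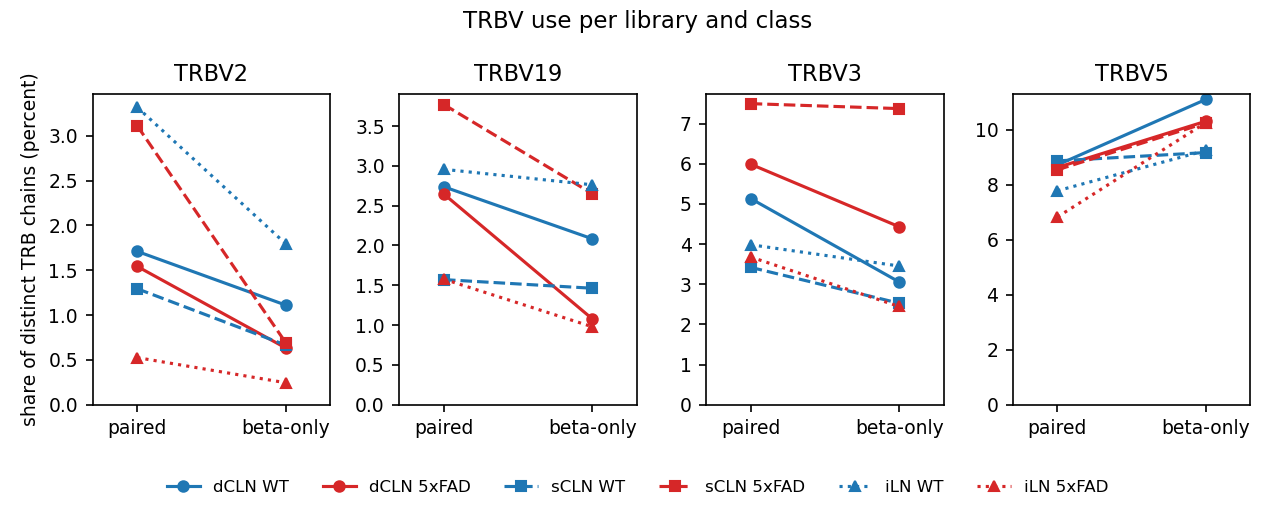
Share of distinct TRB chains (percent) that use TRBV2, TRBV19, TRBV3 and TRBV5 in paired and in beta-only barcodes, with 1 line per library (color for genotype, marker and line style for node). TRBV2, TRBV19 and TRBV3 lines fall in 6 of 6 libraries, and TRBV5 lines go up in 6 of 6.

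Of the remaining genes, 6 had the same direction in at least 5 of 6 libraries and a mean of 20 or more chains, and none of them passed the test. TRBV13-2, known as V-beta 8.2 and used by many invariant natural killer T (iNKT) cells, stood at -0.19 on the log2 scale (edgeR adjusted p = 0.141), with shares of 7.01% and 11.4% in beta-only and paired chains of iLN 5xFAD and of 13.7% and 13.3% in iLN WT. Without iLN 5xFAD it was -0.11, and without iLN WT it was -0.24 and passed (edgeR adjusted p = 0.0337). TRBJ1-3 had a value of -0.17, TRBV13-1 of 0.15, TRBJ2-3 of 0.12, TRBJ2-1 of -0.10 and TRBJ1-1 of -0.09. Adjusted p over these 6 ran from 0.141 to 0.581. Among chains at or below the median beta-only UMI count of their library, TRBV13-2 (-0.30, edgeR adjusted p = 0.0184) and TRBJ1-1 (-0.28, adjusted p = 0.0212) passed as well, and TRBJ2-1 turned to 0.06. That subset kept paired chains of 1 UMI, which beta-only barcodes did not have, so these passes may reflect the listing. With at least 2 TRB UMIs and no upper limit, TRBV13-2 was at -0.17 (edgeR adjusted p = 0.179). TRBJ1-1 was then at -0.05 (edgeR adjusted p = 0.972).

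Calls within gene groups are read against the 12.1% of all 33 genes that were called in either direction. The 5 TRBV genes that iNKT cells use (TRBV1, TRBV13-1, TRBV13-2, TRBV13-3 and TRBV29) had 4 positive and 1 negative values with 0 calls, a median log2 fold change of 0.02, and summed to 44.2% ± 2.34 of beta-only and 43.9% ± 3.90 of paired chains (SD, n = 6). The 4 used by MAIT cells had 1 call, that of TRBV19, and summed to 30.3% ± 2.56 and 31.03% ± 2.02. The 9 TRBV genes deleted in the SJL strain, a founder background of 5xFAD mice, had 0 calls and summed to 43.01% ± 3.68 and 43.2% ± 2.97. TRBV31, which lies downstream of the J genes in inverted orientation, stood at 9.52% ± 1.93 and 9.40% ± 1.16. The 6 TRBJ2 genes summed to 67.6% ± 2.51 and 66.9% ± 2.10, and neither they nor the 6 TRBJ1 genes held a call (0 of each). Over all 33 genes the median log2 fold change was 0.02.

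The class difference was not shown to depend on genotype. The interaction of class and genotype gave 0 calls over 33 genes (0% of the genes tested) with edgeR and with DESeq2, and 1 gene had an unadjusted p under 0.05 by each. That gene in edgeR was TRBV26, with an interaction of 0.59 (standard error 0.22, edgeR adjusted p = 0.542). TRBV26 made up 5.63%, 5.41% and 5.70% of beta-only chains in dCLN, sCLN and iLN of 5xFAD against 4.56%, 3.55% and 3.59% of paired chains, and in WT 3.89%, 3.06% and 3.18% against 4.19%, 3.70% and 3.14%. The other interactions named by size were -0.79 for TRBV2 and -0.64 for TRBV19 (edgeR adjusted p = 0.752 each). In simulated data, with a spread set in advance, the edgeR interaction fit recovered 23.3% of 1.5-fold and 70.8% of 2-fold changes. Many interactions of such size could thus be missed.

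V genes with a long contig stretch before the V region tended to be lower in beta-only chains. This stretch, from the first base of the contig to the start of the mature V region, holds the leader and what lies before it. Its median over paired barcodes was 213 nt for TRBV19 and 158 nt for TRBV3, the longest of 21 TRBV genes, and 125 nt for TRBV2, against 84 nt for TRBV5 and a median of 89 nt over the 21 genes. TRBV2 ranked 7 by this length. Of the uncalled genes ranked before it, TRBV12-2 (129 nt) and TRBV13-2 (126 nt) had log2 fold changes of -0.39 and -0.19. TRBV30 (131 nt) and TRBV1 (130 nt) were nearly level, at -0.08 and 0.01. Over these 21 genes, which share libraries and are not independent, the Spearman rho between the log2 fold change and this length was -0.79, and -0.75 over the 17 genes that were not called. TRBV2 also had the fewest UMIs of all 21, with a median of 4 in paired barcodes, and TRBV19 had 6, while TRBV5 and TRBV3 had 9. The rho with the mean log2 UMI count was 0.44. The part of contig length and UMI count in the gene differences was not tested.

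**Figure D4:**
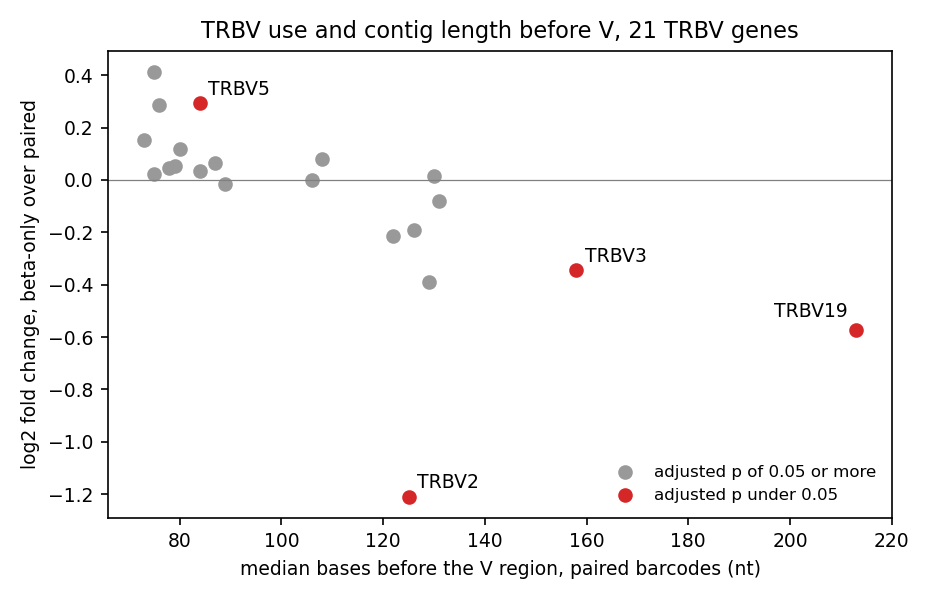
Log2 fold change of TRBV use, beta-only over paired (y), against the median number of contig bases before the V region in paired barcodes (x, nt), 1 point per TRBV gene, 21 in all. Red points passed the edgeR test; genes with long stretches lie lower (Spearman rho -0.79).

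Contigs themselves had nearly the same length in both classes. The mean TRB contig measured 536.9 ± 4.99 nt in beta-only and 538.2 ± 5.25 nt in paired barcodes (SD, n = 6 libraries), a difference of -1.22 ± 1.47 nt (exact two-sided p = 0.125, adjusted p = 0.375). The bases before the V region were fewer in beta-only in 6 of 6 libraries, by a mean of -2.71 ± 1.56 nt (exact two-sided p = 0.0312, adjusted p = 0.156). Compared within TRBV genes, an alternative added after the data were seen, the difference was 0.22 nt and the difference in contig length turned to 1.34 nt. The bases after the J region, which reach into the constant gene, were more in beta-only in 6 of 6 libraries, by 1.496 ± 0.98 nt (exact two-sided p = 0.0312, adjusted p = 0.156). None of the measures passed after adjustment, which this test could hardly do with 6 libraries.

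Beta-only contigs more often carried an assigned constant gene. Among chains of 2 or more UMIs, no constant gene was assigned to 0.510% of beta-only and 1.498% of paired chains in dCLN WT, 1.11% and 2.54% in dCLN 5xFAD, 0.902% and 1.82% in sCLN WT, 0.774% and 1.53% in sCLN 5xFAD, 0.268% and 1.88% in iLN WT, and 1.28% and 4.63% in iLN 5xFAD. The beta-only value was lower in each library. Alpha chains of 2 or more UMIs showed the same trait, with 0% to 0.912% unassigned in alpha-only and 1.52% to 4.13% in paired barcodes. The alpha-only value was also the lower one in each library, so the trait was not particular to beta-only barcodes. This measure was chosen after its values were seen and was not tested. Reads per UMI, on the log2 scale, were 8.003 ± 0.58 in beta-only and 8.07 ± 0.61 in paired barcodes, lower in beta-only in 5 of 6 libraries (exact two-sided p = 0.0938, adjusted p = 0.352). The share of chains with a V region identical to a germline allele was 95.6% ± 0.47 and 95.7% ± 0.67 (exact two-sided p = 0.562, adjusted p = 0.898).

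In junctions, the part of the chain that contacts antigen most, no tested feature differed past the threshold, which the adjusted exact test could hardly reach. The lowest unadjusted p of these features was 0.250 (exact two-sided sign-flip), for the TRBD2 share. The mean junction measured 41.8 ± 0.12 nt in beta-only and 41.7 ± 0.13 nt in paired barcodes (SD, n = 6), a difference of 0.05 ± 0.13 nt (exact two-sided p = 0.469, adjusted p = 0.879). Bases between the called gene segments, counted here as added, numbered 3.99 ± 0.09 and 4.00 ± 0.12 per junction (adjusted p = 0.898, exact sign-flip permutation test). They hold bases added by the enzyme TdT and by hairpin opening. Where no D gene was called, they can also hold D gene bases. Junctions with 0 added bases made up 6.83% ± 0.72 and 6.36% ± 0.44 (adjusted p = 0.670, same exact test). The TRBD2 share among junctions with a single D gene called was 45.6% ± 1.40 and 44.1% ± 2.00, higher in beta-only in 5 of 6 libraries (exact two-sided p = 0.250, adjusted p = 0.625). This difference of 1.45 percentage points was 6.12 in iLN WT and fell to 0.519 without that library. In the middle of the junction, without 3 residues at either end, mean Kyte-Doolittle hydrophobicity was -1.32 ± 0.03 in both classes, and net charge was -0.85 ± 0.01 and -0.85 ± 0.04 (exact two-sided p = 0.812 and 0.844). A D gene could be assigned to 1 gene in 67.9% to 72.5% of chains, so the TRBD2 share leaves out the others.

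Some TRB chains were carried by several beta-only barcodes of a library. In all, 401 beta-only barcodes shared their chain with another beta-only barcode of the same library, and 207 with a paired one. The former made up, for WT, 15.6% of beta-only barcodes in dCLN, 6.19% in sCLN and 6.16% in iLN. For 5xFAD the values were 4.33%, 7.85% and 3.52% in the same node order. Clones of beta-only barcodes were small: 197 chains were in 2 or more beta-only barcodes, 6 in 3 or more, and the largest held 4, in dCLN WT.

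A barcode sharing its chain with a beta-only barcode was itself beta-only more often than one sharing its chain with a paired barcode. The shares were 66.4% against 37.5% in dCLN WT, 68.6% against 44.4% in dCLN 5xFAD, 66.7% against 22.2% in sCLN WT, 66.7% against 29.1% in sCLN 5xFAD, 51.1% against 40.7% in iLN WT and 80.0% against 37.9% in iLN 5xFAD. The first value also exceeded the beta-only share of all barcodes with 1 TRB chain in 6 of 6 libraries. These shares count each pair of barcodes from both sides, rest on 29 to 214 pairings a class and library, and use the presence of the alpha chain, which defines the classes, so no test was made. A beta-only barcode shared its chain with a paired barcode in 3.91% ± 2.53 of cases, and a paired barcode with another paired barcode in 4.502% ± 3.14 (SD, n = 6; difference -0.59 ± 2.05 percentage points, higher in beta-only in 3 of 6 libraries).

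**Figure D5:**
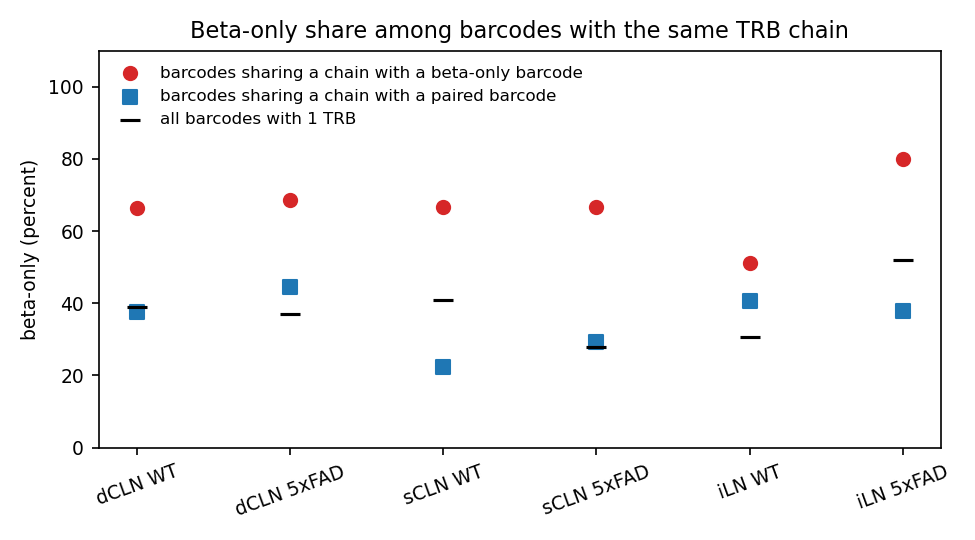
Percent of beta-only barcodes among barcodes that share their TRB chain with a beta-only barcode (circles), among those that share it with a paired barcode (squares), and among all barcodes with 1 TRB chain (dashes), per library. Circles lie above squares and dashes in 6 of 6 libraries, by the widest margin over squares in sCLN WT (66.7% against 22.2%).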

How the data were processed

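Receptor contigs of 9 samples were deposited as 1 table each. The submitters' processing notes list Cell Ranger 6.0.1, Seurat 4.1.0 and mm10 without saying what each did, and the columns are those of IgBLAST output, per the file headers. The deposited counts are UMIs and reads per contig, not normalized. V identity is a deposited fraction, and lengths and positions in nucleotides are other deposited values. How the barcodes to list were chosen is not given in the sources used here.

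Productive contigs with a junction were used, and gene calls naming several genes took the first. Barcodes with 2 or more TRB chains were left out as possible doublets, and no doublet caller was run. Each of 15 measures was averaged per library and class, and the differences were tested with an exact two-sided sign-flip permutation test over 6 libraries. Of the 15, the share with 1 TRB UMI and the share of chains also in a paired barcode follow from how chains were listed or chosen, and are given as descriptions. Both stayed among the 15 for the adjustment. Adjustment was by Benjamini-Hochberg, with a threshold of 0.05. Usage of 33 genes with at least 30 chains was compared by quasi-likelihood in edgeR 4.0.16 (R 4.3.3), taking the number of chains as offset and the library as a block, since both classes come from the same library. DESeq2 1.42.0 was an alternative. The usage fit was tested on simulated data with 6 of 33 genes changed. Counts were drawn gene by gene with 1 spread (dispersion) for all genes, set in advance and not estimated from these data. Recovery in the real data may therefore differ. The class fit recovered 80.8% of 1.5-fold and 95.8% of 2-fold changes. The interaction fit recovered 23.3% and 70.8%. Of the calls made, 3.96% and 4.17% were false in the class fit, and 6.67% and 2.3% in the interaction fit. P-values measure the spread of the class difference over libraries, which may share animals. Log2 ratios within a library used a pseudocount of 0.5.

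Genes were named by a rule: all past the threshold, then those with a mean of at least 20 chains and the same direction in 5 of 6 libraries, up to 20. For the interaction these were the 3 largest with the same sign in 3 node types. The members, measures and lists were chosen with earlier results of these data known. The SJL, iNKT and MAIT lists come from general knowledge. Gene positions are from GENCODE M21 (GRCm38). The CD4-titled and mixed libraries lie outside the choice of members and are given only at the end.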

Additional observations from a re-analysis of the deposited data

Results flagged for a closer look

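The difference in TRB junction length between beta-only and paired barcodes was positive in each WT library and negative in each 5xFAD library, so that 5xFAD minus WT stood at -0.20 nt. The pattern did not hold against paired barcodes with exactly 1 TRA chain, where iLN 5xFAD was at 0.0411 nt, or within TRBV genes, where dCLN 5xFAD was at 0.00831 nt. TRBJ2-2 was likewise higher in beta-only chains of each WT library and lower in each 5xFAD library, with a difference of -0.32 between the genotypes' mean log2 ratios. Its interaction was -0.30 with an edgeR adjusted p of 0.752, and the difference in junction length was not tested. These were 2 of 48 features and measures looked at for such a pattern.

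Nonproductive alpha contigs, which the 6 main libraries do not list, were listed in the CD4-titled and mixed libraries, mostly in beta-only barcodes. They were listed for 24 of 1363 beta-only barcodes in the CD4-titled library labelled WT, or 1.76% (exact Clopper-Pearson 95% interval 1.13 to 2.61), against 6 of 4930 paired barcodes, or 0.122%. The CD4-titled library labelled 5xFAD shares 6825 of its 6913 barcodes with the one labelled WT and is not a separate observation. There they were listed for 2.04% of 1321 beta-only barcodes (1.35 to 2.96), and in the mixed library for 3.35% of 777 (2.20 to 4.86), against 0.140% and 0.139% of paired barcodes.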

How the results depend on the processing

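The count of 4 genes called between classes was 2 with at least 2 TRB UMIs, 1 with DESeq2 on its own size factors, 2 without both iLN libraries (added after the data were seen) and 1 with no replicate block, where node type and genotype replaced the library. It ran from 1 to 5 with 1 library left out, with 1 without iLN 5xFAD and 2 without either dCLN library. With no replicate block the 1 call was TRBV5, and the TRBV2 value was -1.35 (edgeR adjusted p = 0.200); on its own size factors DESeq2 called TRBV2 alone. Of the 4 genes, TRBV2 was called in 10 of 11 other settings and TRBV5, TRBV19 and TRBV3 in 9, 8 and 7, without a change of sign. Among the 11, the setting with no minimum on chains kept the same 33 genes, so it repeats the main fit and adds no check. TRBJ2-1 turned to 0.0604 at or below the median beta-only UMI count. The interaction count was 0 in each setting in which it was fitted, which leaves out the fits without the block and without both iLN libraries.

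For the 15 measures no setting that kept 6 libraries gave an adjusted p under 0.05 (0 of them), and leaving out a library makes 0.0625 the smallest p. With 6 libraries such an adjusted p needs most measures at the smallest p together, so this absence decides little. The mean difference changed sign for log2 UMIs, at -0.06 with at least 2 UMIs and -0.0229 within TRBV genes, for contig length (1.34 nt) and bases before V (0.22 nt) within TRBV genes, for the TRBJ2 share (-0.0033 percentage points with at least 2 UMIs, -0.056 within UMI strata) and for chains also in a paired barcode (1.61 with distinct chains). With 1 library left out the ranges were -0.0189 to 0.0201 for log2 UMIs, -1.09 to 0.111 for chains also in a paired barcode, -0.172 to 1.15 for the TRBJ2 share, -0.0433 to 0.0153 for added bases, -0.011 to 0.0222 for hydrophobicity and -0.0085 to 0.0096 for net charge. The genotype difference in beta-only share ran from -7.40 to 9.72 with 1 node left out. Removing barcode neighbours changed nothing, as there were 0. The causes were not tested.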

Other observations

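The CD4-titled dCLN libraries, labelled WT and 5xFAD but sharing nearly all barcodes, listed an alpha chain for mostly the same barcodes. They shared 6825 barcodes, out of 6901 and 6913, and held 87415 and 87917 UMIs. Whether they come from the same amplified material is not given. Their overlap therefore does not measure how often the alpha chain of a cell is detected again. Of 1341 shared barcodes that were beta-only in the library labelled WT, 1202 (89.6%) were beta-only in the other as well, and 138 (10.3%) were paired there. Of 4897 barcodes paired in the first, 84 (1.72%) were beta-only in the second.

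Beta-only barcodes made up 21.7% and 20.9% of barcodes with 1 TRB chain in the CD4-titled pair and 21.3% in the library of mixed nodes, below each of the 6 main libraries. TRBV2 was lower among beta-only than paired chains there too, at 5.71% and 7.86% in the CD4-titled library labelled WT (log2 ratio -0.45, 95% counting interval -0.79 to -0.11), at 5.05% and 8.08% in the one labelled 5xFAD (-0.67, -1.03 to -0.30) and at 4.095% and 5.39% in the mixed library (-0.38, -0.92 to 0.16). In the library labelled WT and in the mixed library, the ratio of TRBV19 was -0.11 in each, that of TRBV3 was -0.12 and -0.24, and that of TRBV5 was -0.08 and 0.05, with intervals that included 0. The bases before the V region differed by -2.91 and -2.77 nt. Barcodes sharing a chain with a beta-only barcode were beta-only in 28.6% and 51.2% of cases, and those sharing a chain with a paired barcode in 12.5% and 23.5%. These values were looked up after those of the 6 libraries were seen.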
